A study of Homo sapiens with 18 samples.

Results

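Glycolysis breaks glucose down to pyruvate in the cytosol, and hypoxia-inducible factor (HIF) is the transcription factor that raises many of its enzymes, and a set of other genes, when oxygen is short. The genes followed here were taken from a list of 38 glucose transporters, glycolytic enzymes and their regulators, lactate and pyruvate enzymes, oxygen sensors and HIF targets. Each gene was represented by its brightest probe, judged by the mean of the 18 arrays. Of the 38 listed genes, 36 were matched to a probe, among 19782 genes with a probe in all. SLC16A3 and CA9 were not analysed here. Of the 36, 35 passed the filter on dim genes and were tested among 12483 genes. EGLN3 fell below it, with a mean log2 intensity of 5.70 against a limit of 5.72, the median of all probes.

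RNA came from cells labelled HepG2 (a human liver carcinoma line) and was measured on 18 single-colour Illumina bead arrays, 3 in each of 6 groups. Cells were transfected with a scramble control siRNA, with si-PSTAR, directed at the long noncoding RNA PSTAR, or with si-hnRNP K, directed at the mRNA of the RNA-binding protein hnRNP K. Each transfection was either left without drug or given doxorubicin (DOX), a drug that damages DNA, at 400 nM for 16 hours. All groups shared the line, the culture medium and a transfection, and no untransfected arrays were used; the labels do not say whether replicate arrays stem from separate cultures, so p-values measure only the spread between arrays, which may be technical. The study asked what either knockdown does to gene expression under DOX.

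In glycolysis, glucose enters through transporters such as SLC2A1 and SLC2A3, is phosphorylated by hexokinases, and is committed to breakdown at the phosphofructokinase step. PFKFB enzymes make fructose 2,6-bisphosphate, the strongest activator of that step, and TIGAR, a p53-inducible phosphatase, removes it. In oxygen, EGLN enzymes hydroxylate the HIF alpha subunits and mark them for destruction; without it HIF binds short DNA elements built on the core ACGTG or GCGTG. Tumour lines and liver cancers commonly run glycolysis at a high rate.

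Several facts about the arrays bear on the results. HNRNPK, the target of one siRNA, had log2 intensities of 12.01, 11.87 and 11.96 on the scramble arrays with DOX, 8.46, 8.31 and 8.18 on those labelled si-PSTAR and 11.10, 11.50 and 11.48 on those labelled si-hnRNPK. The difference from scramble was -3.63 ± 0.10 (log2, SE) on the arrays labelled si-PSTAR (limma, adjusted p = 2.89e-19) and -0.59 on those labelled si-hnRNPK (adjusted p = 5.13e-05). Without drug it was again low, at 8.42 to 8.46, only on the arrays labelled si-PSTAR, and the arrays labelled si-hnRNPK did not pass the test (difference -0.17, adjusted p = 0.222). The labels of the siRNA groups thus go against the targeted gene, and each group is named below by its label only. Of 13 hepatocyte markers with a probe, 4 reached the median of all probes (ALB 7.41, FGA, SERPINA1 and TTR), while AFP was at 5.56, APOA1 at 5.49 and AHSG at 5.33. Of 7 fibroblast markers, 5 reached it, with DCN at 8.47 and a mean over the 7 markers between 6.45 and 7.11 in the 6 groups. With DOX, DCN read 8.86, 10.06 and 7.55 as the means of the scramble, si-PSTAR and si-hnRNPK arrays, and ALB 6.84, 6.93 and 8.69, so both markers differed between the groups compared below. The other markers that reached the median did not all follow. In the same order, COL1A1 read 8.06, 7.18 and 7.78, COL3A1 8.28, 7.72 and 7.44, PDGFRB 7.47, 6.11 and 6.77 and LUM 6.01, 6.38 and 5.96. FGA read 5.97, 5.90 and 5.82, SERPINA1 5.84, 5.80 and 5.79 and TTR 5.75, 5.87 and 5.75. The cells are therefore called cells labelled HepG2, and what part these markers play in the results was not tested. The arrays formed 2 clusters: 6 arrays, of untreated scramble and untreated si-hnRNPK, correlated at 0.978 or more with each other, the remaining 12 at 0.957 or more, and arrays of different clusters at 0.963 or less. Comparisons within a cluster are given first. In comparisons across clusters the cluster and the treatment cannot be told apart.

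Short sequences before the transcription start show where the HIF core element is found in 4 members. All 4 hold it and do not stand for the members as a whole. Promoters were matched for 31 of the 36 members in RefSeq (GRCh38.p14), and the 250 bases before each start were searched on both strands for ACGTG and GCGTG. Among the 20 members with 1 listed promoter, 10 held ACGTG (50.0%, against 18.4% of all genes with 1 promoter), 7 held GCGTG (35% against 31.1%) and 14 held either (70% against 42.2%). Over all 55 member promoters, 38.2% held ACGTG (18.5% of all promoters) and 30.9% held GCGTG (32.2% of all promoters). SLC2A1, PGAM1, PKM, LDHB, EGLN3 and P4HA2 held neither. Whether holding an element goes with a change in level was not tested. A match describes the letters and is not evidence of binding. The promoters of 4 members follow, read 5′ to 3′ on the gene's strand, with the core element in capitals. In ANKRD37, the first capital stretch is CACGTG, in which ACGTG reads on both strands, and a further ACGTG lies 143 to 139 bases before the start. The strands and places are chr4:185396591-185396840 (plus) for ANKRD37, chr11:10304823-10305072 (plus) for ADM, chr1:231422288-231422537 (minus) for EGLN1 and chr3:48556804-48557053 (minus) for PFKFB4.
ANKRD37: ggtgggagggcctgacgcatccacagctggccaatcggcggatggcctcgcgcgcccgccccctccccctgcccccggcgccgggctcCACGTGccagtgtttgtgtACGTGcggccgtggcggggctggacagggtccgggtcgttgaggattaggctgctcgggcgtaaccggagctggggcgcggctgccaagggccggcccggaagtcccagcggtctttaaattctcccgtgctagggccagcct
ADM: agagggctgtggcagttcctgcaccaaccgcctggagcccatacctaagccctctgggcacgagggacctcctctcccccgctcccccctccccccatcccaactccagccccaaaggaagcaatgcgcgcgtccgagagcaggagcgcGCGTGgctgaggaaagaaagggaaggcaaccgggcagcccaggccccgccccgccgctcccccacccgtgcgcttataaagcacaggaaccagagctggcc
EGLN1: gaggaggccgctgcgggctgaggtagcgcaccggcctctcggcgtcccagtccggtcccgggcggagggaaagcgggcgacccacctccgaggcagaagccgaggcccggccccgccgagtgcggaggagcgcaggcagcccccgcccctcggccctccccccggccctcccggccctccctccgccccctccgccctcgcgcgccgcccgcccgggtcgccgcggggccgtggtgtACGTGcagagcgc
PFKFB4: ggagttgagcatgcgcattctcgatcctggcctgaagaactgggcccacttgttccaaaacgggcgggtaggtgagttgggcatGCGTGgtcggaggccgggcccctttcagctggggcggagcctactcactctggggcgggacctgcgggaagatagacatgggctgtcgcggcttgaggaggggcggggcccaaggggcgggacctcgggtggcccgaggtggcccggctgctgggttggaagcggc
ANKRD37, which encodes a small ankyrin repeat protein, and ADM, which encodes the vasodilator peptide adrenomedullin, both fell with si-PSTAR and rose with si-hnRNPK under DOX, as given below. EGLN1 rose with both labels and PFKFB4 fell with both. The EGLN1 call with si-hnRNPK was lost with some arrays left out, as given below. Whether the kind of element goes with the direction of change was not tested.

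**Figure D1:**
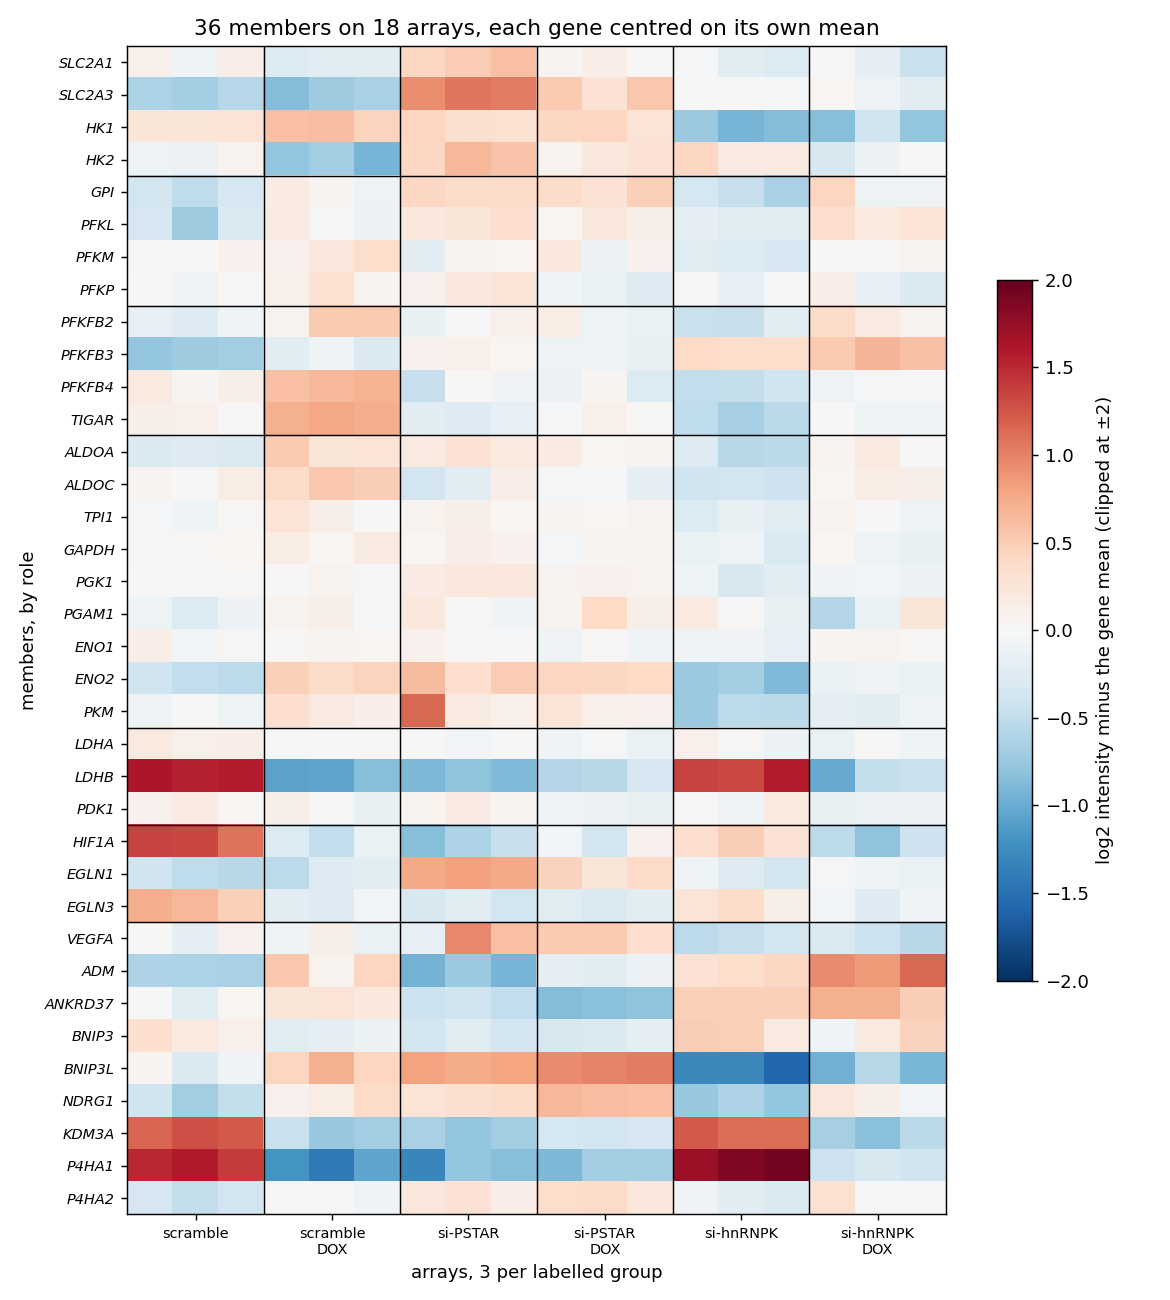
Log2 intensity of the 36 members on the 18 arrays, each gene centred on its own mean and clipped at 2 log2 units either way; columns are arrays in their labelled groups, rows are members by role. LDHB, P4HA1, KDM3A and HIF1A are high on the 6 arrays of untreated scramble and untreated si-hnRNPK and lower on the other 12.

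Under DOX, the arrays labelled si-PSTAR differed from scramble in 20 of the 35 members tested, 12 higher and 8 lower. Of all genes tested, 45% were called in this comparison, 22.4% higher and 22.6% lower, so the members' share of 57.1% stands only a little above the background. The median difference of the members was -0.02, and that of all genes was 0.01. The genes that rose included 3 of the 4 of glucose uptake and phosphorylation and 6 of the 9 HIF targets, while most regulators of phosphofructokinase fell. KDM3A, counted among the 6, read close to the dim limit in scramble. In RNA from whole cultures, less RNA per cell and fewer cells of a type cannot be told apart.

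SLC2A3, a high-affinity glucose transporter, had log2 intensities of 11.09, 11.25 and 11.31 on the scramble arrays with DOX and 12.48, 12.25 and 12.50 on the arrays labelled si-PSTAR. The groups did not overlap, and the gene was 2.28-fold higher (log2 difference 1.19 ± 0.09, adjusted p = 6.43e-11). HK2, the hexokinase of many tumours, read 7.46, 7.56 and 7.34 in scramble and 8.33, 8.49 and 8.55 with si-PSTAR. That is a rise of 1.003 ± 0.10 (adjusted p = 1.13e-08), but the second HK2 probe gave -0.03, so the rise was carried by 1 of the 2 probes. SLC2A1, the widespread basal glucose transporter, rose by 0.31 (adjusted p = 0.016). HK1, the hexokinase most cells express, was at -0.19 and did not pass the test (interval -0.40 to 0.02). In the next steps, GPI, which interconverts glucose 6-phosphate and fructose 6-phosphate, rose by 0.33, and PFKP, the platelet form of phosphofructokinase, fell by 0.31.

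All but 1 of the 4 regulators of phosphofructokinase fell with si-PSTAR under DOX. TIGAR read 9.76, 9.82 and 9.78 in scramble and 9.01, 9.14 and 9.07 with si-PSTAR, without overlap, and was 1.64-fold lower (log2 difference -0.71 ± 0.08, adjusted p = 6.67e-08). PFKFB4, which makes and removes fructose 2,6-bisphosphate and is itself a HIF target, read 8.19, 8.25 and 8.28 in scramble and 7.47, 7.63 and 7.32 with si-PSTAR. It fell by 0.77 (1.7-fold, adjusted p = 1.23e-06). PFKFB2, the heart form, fell by 0.40, and its second probe by 0.75. PFKFB3, the HIF-inducible form of proliferating cells, was at 0.09 (adjusted p = 0.434).

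Below phosphofructokinase most enzymes did not pass the test with si-PSTAR under DOX. Of the 9 lower glycolysis genes tested, 2 fell, both aldolases, the enzymes that split fructose 1,6-bisphosphate. ALDOC, the brain form, read 10.63, 10.78 and 10.73 in scramble and 10.20, 10.21 and 10.04 with si-PSTAR, a fall of 0.56 (adjusted p = 5.41e-05). ALDOA, the muscle and general form, fell by 0.25, and its second probe by 0.72. The other 7 (TPI1, GAPDH, PGK1, PGAM1, ENO1, ENO2 and PKM) lay between -0.09 and 0.14. On their highest arrays, the probes of GAPDH, ENO1 and LDHA read within 0.5 of the highest value, 14.798. LDHB, the lactate dehydrogenase subunit that favours lactate oxidation, rose by 0.50 (adjusted p = 0.00103), whereas LDHA, the subunit that favours lactate production, was at -0.09 and PDK1, a HIF-induced kinase that shuts off pyruvate entry into mitochondria, at -0.09.

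Oxygen sensors and HIF targets moved in both directions with si-PSTAR under DOX. EGLN1, the main oxygen-dependent HIF hydroxylase, read 7.27, 7.54 and 7.56 in scramble and 8.25, 8.03 and 8.18 with si-PSTAR, a rise of 0.70 (1.62-fold, adjusted p = 1.27e-06). HIF1A itself did not pass the test (0.18, interval -0.08 to 0.44). Of the 9 HIF targets tested, 6 rose: VEGFA, the vascular growth factor, by 0.50 with its second probe at 0.41; BNIP3L, a mitophagy receptor, by 0.46 with its second probe at 0.05; NDRG1, a stress-responsive protein, by 0.42; KDM3A, a histone demethylase, by 0.27; and the collagen prolyl hydroxylases P4HA1 and P4HA2 by 0.46 and 0.33. KDM3A passed the filter on dim genes through the untreated scramble and si-hnRNPK arrays, with means of 7.60 and 7.53. Under DOX its means were 5.75 in scramble, close to the dim limit of 5.72, and 6.02 with si-PSTAR. The size of its rise is therefore uncertain. The mean of the P4HA1 probes gave 0.16 and did not pass (adjusted p = 0.108), with a dim second probe at 5.38. The other 2 calls were falls. ANKRD37 read 9.50, 9.51 and 9.47 in scramble and 8.39, 8.42 and 8.46 with si-PSTAR, 2.1-fold lower (log2 difference -1.07 ± 0.09, adjusted p = 1.97e-10). ADM read 11.22, 10.75 and 11.10 in scramble and 10.48, 10.46 and 10.56 with si-PSTAR, a fall of 0.52 (adjusted p = 0.000167). BNIP3, the partner of BNIP3L, was at -0.08. Of the 20 calls, 13 held when each array was left out in turn. The other 7 were lost at least once, namely ALDOA (without scramble replicate 1 or si-PSTAR replicates 2 or 3, adjusted p up to 0.222), KDM3A (scramble 2 or 3, si-PSTAR 3, up to 0.114), GPI (scramble 3, si-PSTAR 3, up to 0.11), PFKP (scramble 2, si-PSTAR 3, up to 0.093), SLC2A1 (si-PSTAR 2, 0.0644), VEGFA (scramble 3, si-PSTAR 2, up to 0.0565) and PFKFB2 (scramble 2, 0.0507).

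**Figure D2:**
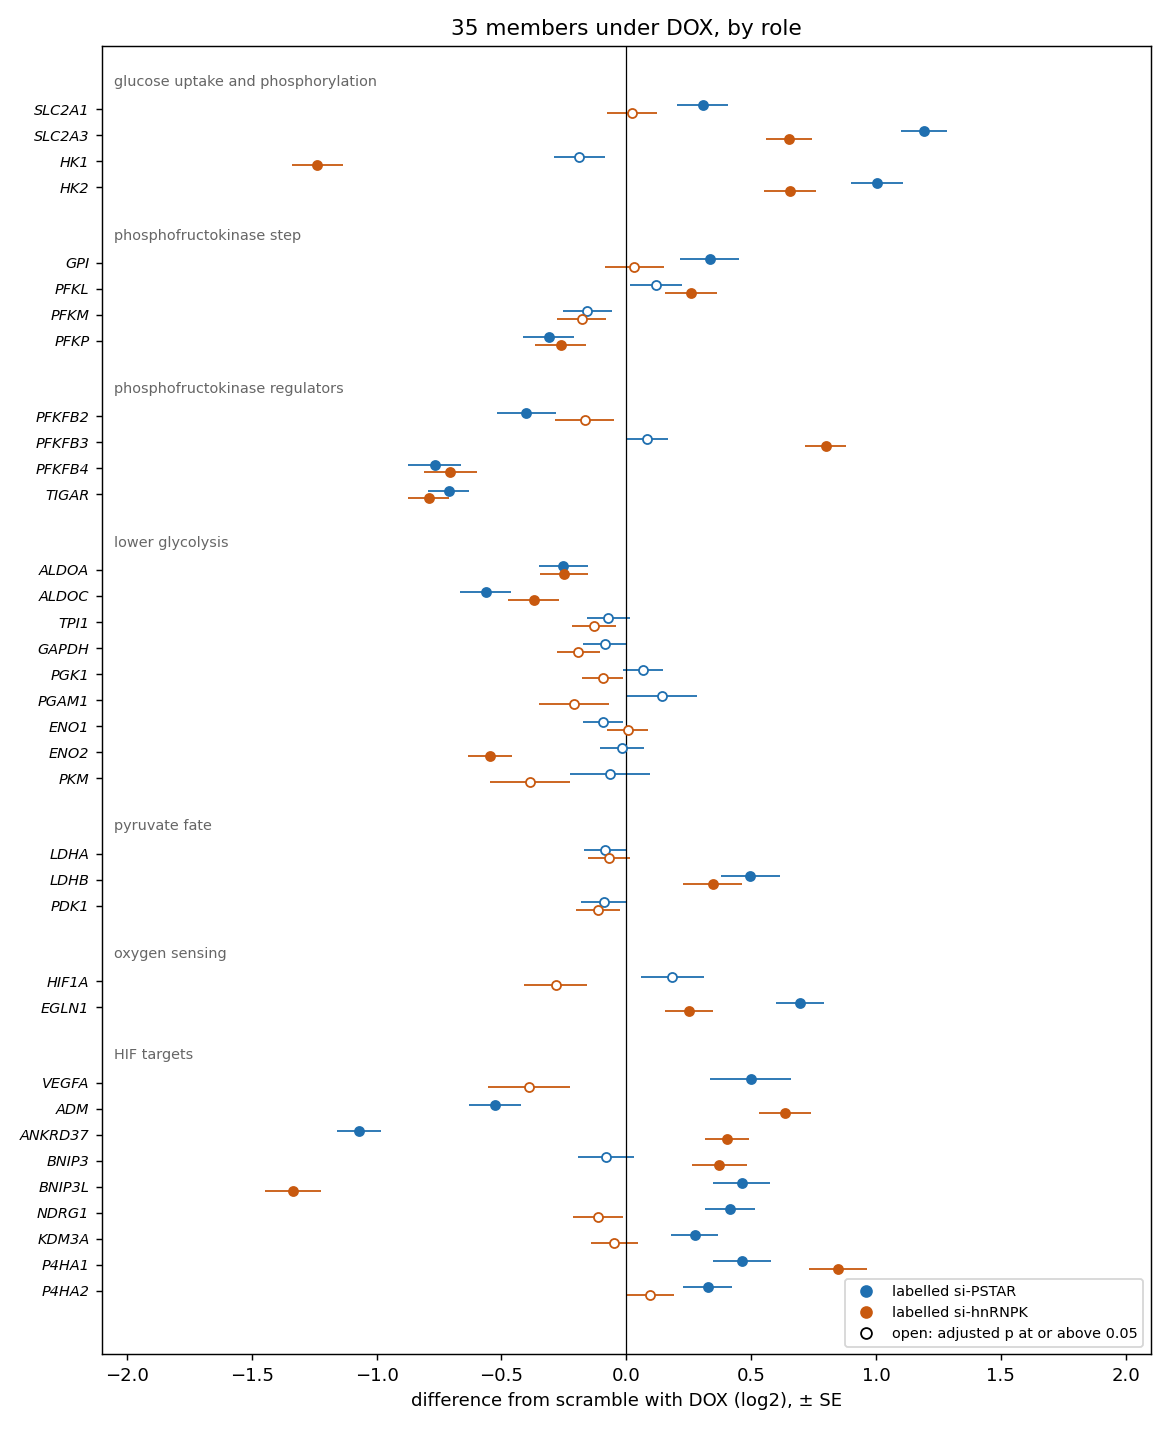
Log2 difference from scramble under DOX of the 35 members tested, by role, for the arrays labelled si-PSTAR and si-hnRNPK; points are differences of group means, bars are standard errors from the limma fit, and open points did not reach an adjusted p of 0.05. SLC2A3 and HK2 lie to the right and TIGAR and PFKFB4 to the left with both labels, while ANKRD37, ADM and BNIP3L lie on opposite sides.

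Under DOX, the arrays labelled si-hnRNPK differed from scramble in 18 of 35 members, 10 higher and 8 lower, against a background of 39.7% of all genes (19.8% higher, 19.9% lower). This comparison and the one above share the scramble arrays, so their values are set side by side here and the difference between the labels is tested below. HK1 read 11.80, 11.81 and 11.64 in scramble and 10.34, 10.80 and 10.41 with si-hnRNPK, 2.36-fold lower (log2 difference -1.24 ± 0.10, adjusted p = 2.44e-10). BNIP3L read 9.68, 9.97 and 9.69 in scramble and 8.30, 8.70 and 8.34 with si-hnRNPK, 2.52-fold lower (-1.33 ± 0.11, adjusted p = 3.7e-10). Neither gene's groups overlapped. The second probes of both were near the dim limit, at 5.88 for HK1 and 5.99 for BNIP3L, and gave -0.37 and -0.06.

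SLC2A3, at 12.002, 11.85 and 11.75, was 0.65 higher with si-hnRNPK than in scramble (1.57-fold, adjusted p = 2.8e-06), and HK2, at 7.94, 8.14 and 8.25, was 0.66 higher, with the second probe at -0.08. Of the regulators of phosphofructokinase, PFKFB3 rose by 0.80 (adjusted p = 1.38e-08), from 8.83, 8.98 and 8.77 to 9.58, 9.74 and 9.65, with a second probe at 0.11. PFKFB4, at 7.49, 7.56 and 7.56, fell by 0.70 and TIGAR, at 9.05, 8.97 and 8.97, by 0.79 (adjusted p = 5.78e-06 and 1.45e-08). So 1 regulator rose and 2 fell, and PFKFB2 was at -0.17 and did not pass. In lower glycolysis ENO2, the neuronal enolase, fell by 0.55, ALDOC by 0.37 and ALDOA by 0.25. Of the HIF targets, P4HA1 rose by 0.85 (adjusted p = 1.32e-06), ADM by 0.63, ANKRD37 by 0.40 and BNIP3 by 0.37, and BNIP3L fell. The remaining calls were small: LDHB at 0.35, PFKL, the liver form of phosphofructokinase, at 0.26, EGLN1 at 0.25 and PFKP at -0.26. Of the 18 calls, 12 held with each array left out in turn. PFKL was lost in 5 of 6 such fits (all but scramble replicate 1), PFKP (scramble 1 or 2, si-hnRNPK 2 or 3) and LDHB (the same arrays) in 4 each, ALDOA (scramble 1, si-hnRNPK 1 or 3) and EGLN1 (scramble 1, si-hnRNPK 1 or 2) in 3 each and BNIP3 in 1 (si-hnRNPK 3), with adjusted p up to 0.249.

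**Figure D3:**
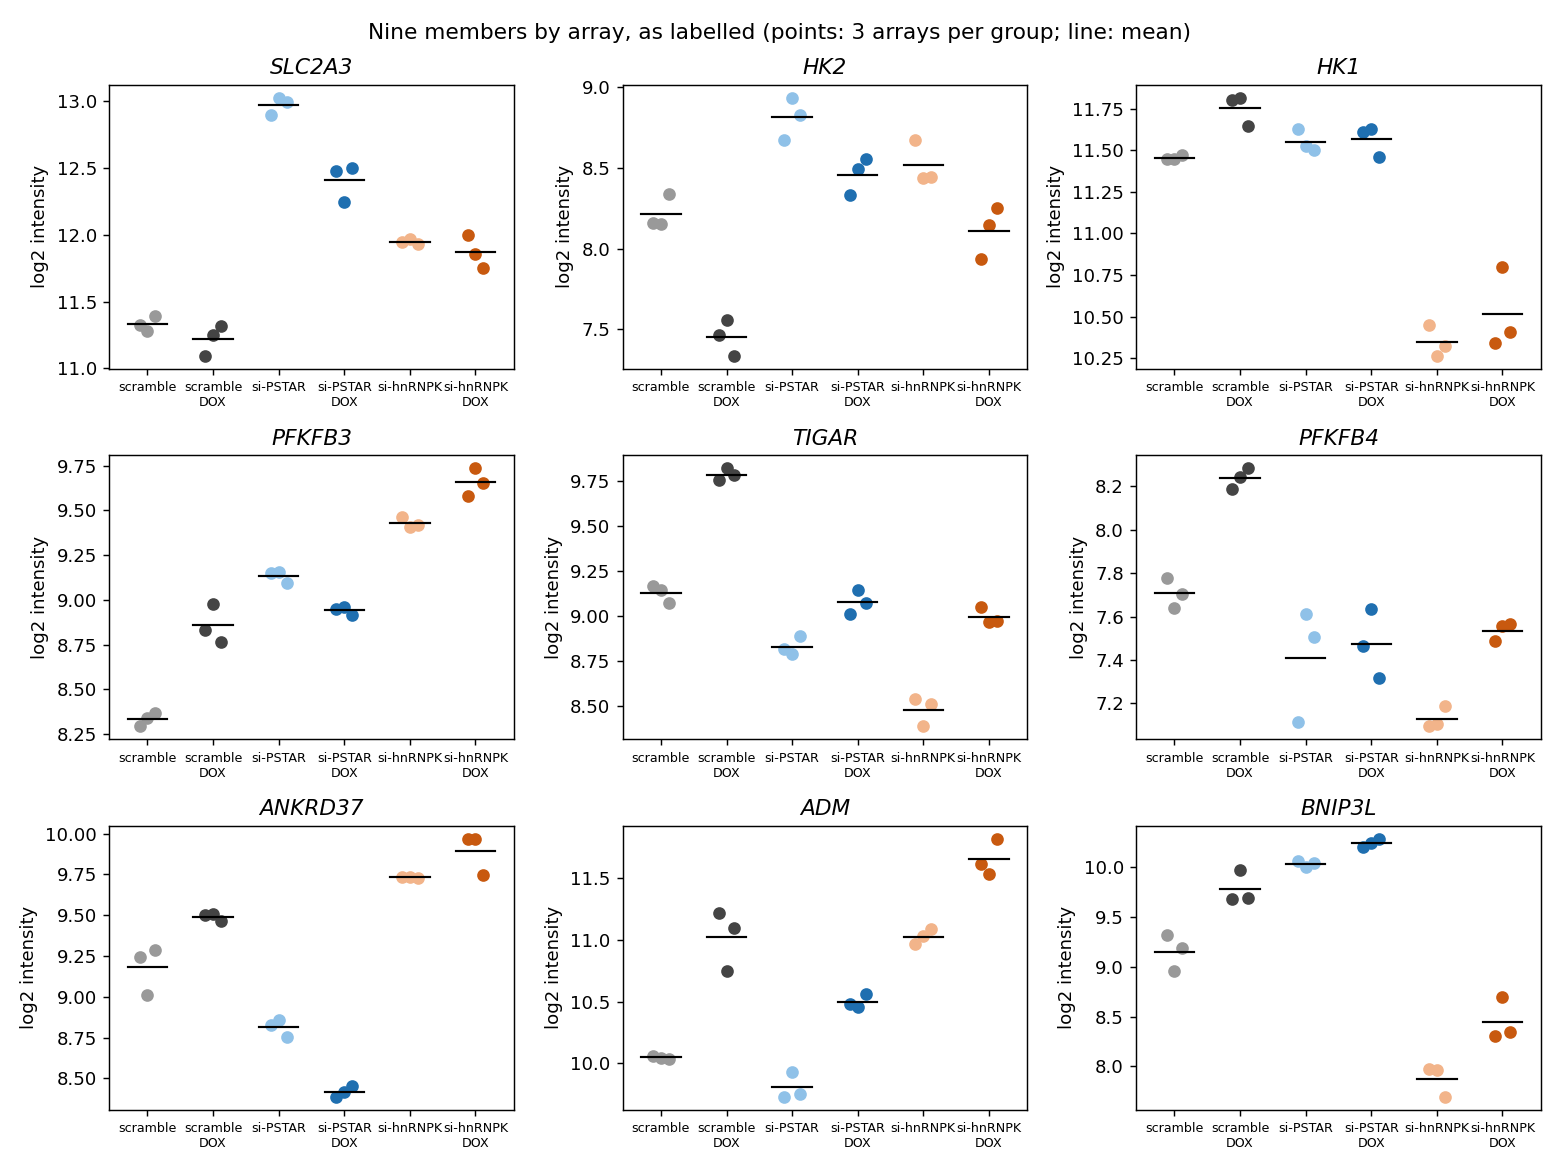
Log2 intensity of 9 members on each array (points) with the group mean (line), by labelled siRNA and drug; each gene has its own axis. HK1 and BNIP3L are lowest on the arrays labelled si-hnRNPK in both drug states, and ANKRD37 and ADM are highest on the si-hnRNPK arrays with DOX.

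The direct comparison of the labels under DOX called 18 of 35 members, 5 higher and 13 lower with si-hnRNPK than with si-PSTAR, against 43.3% of all genes (22.3% higher, 20.9% lower). All 4 genes of glucose uptake and phosphorylation were lower with si-hnRNPK: HK1 by 1.05 on the log2 scale (2.07-fold, adjusted p = 3.58e-09), SLC2A3 by 0.54, HK2 by 0.35 and SLC2A1 by 0.28. The HIF targets divided evenly, with 4 higher and 4 lower. ANKRD37 was 2.78-fold higher (1.47 ± 0.09, adjusted p = 4.15e-13), ADM 2.23-fold higher (1.16 ± 0.10, adjusted p = 8.87e-10), BNIP3 0.46 higher and P4HA1 0.39 higher. BNIP3L was 3.47-fold lower (-1.80 ± 0.11, adjusted p = 9.38e-13), with its second probe at -0.11. VEGFA was lower by 0.89, with the second probe at -0.77, NDRG1 by 0.53 and KDM3A by 0.32. The KDM3A mean with si-hnRNPK was 5.70, below the dim limit of 5.72, so its difference is not a measured size. The 2 genes of oxygen sensing, HIF1A and EGLN1, were lower by 0.47 and 0.45, although the other 2 HIF1A probes gave -0.04 and -0.19. PFKFB3 was 0.71 higher, with its second probe at 0.16, and the second HK2 probe was at -0.05. The labels were not shown to differ for TIGAR (-0.08, interval -0.25 to 0.09), PFKFB4 (0.06, interval -0.15 to 0.28) or ALDOA (0.00, interval -0.20 to 0.20), which bounds a difference for TIGAR and PFKFB4 below the falls each label showed against scramble. Calls lost with 1 array left out were those of GPI (without si-PSTAR 1 or 3, si-hnRNPK 2 or 3), PGAM1 (si-PSTAR 2 or 3, si-hnRNPK 1 or 2), SLC2A1 (si-PSTAR 1 or 2, si-hnRNPK 3), HK2 (si-hnRNPK 1), KDM3A (si-hnRNPK 2) and P4HA1 (si-PSTAR 1), with adjusted p up to 0.432. PGAM1, a phosphoglycerate mutase, had 1 array apart, si-hnRNPK replicate 1 at 10.72 beside 11.18 and 11.56.

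Without drug, the arrays labelled si-hnRNPK and scramble lie in the same cluster and share no array with the comparison under DOX. There, 18 of 35 members were called, 7 higher and 11 lower, against a background of 33.3% (17% higher, 16.2% lower); the median difference was -0.16 in the members and 0.00 in all genes. PFKFB3 read 8.29, 8.34 and 8.37 in scramble and 9.46, 9.41 and 9.42 with si-hnRNPK, 2.13-fold higher (1.09 ± 0.08, adjusted p = 5.01e-11), and its second probe rose by 0.48. ADM read 10.06, 10.05 and 10.03 in scramble and 10.96, 11.03 and 11.09 with si-hnRNPK, 1.97-fold higher (adjusted p = 2.94e-08). BNIP3L fell from 9.32, 8.96 and 9.18 to 7.98, 7.96 and 7.69, a difference of -1.28 (adjusted p = 1.03e-09), and its second probe gave -0.91. HK1 fell from 11.45, 11.45 and 11.47 to 10.45, 10.26 and 10.33, a difference of -1.11 (adjusted p = 2.33e-09), with its dim second probe at -0.14.

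HIF1A, the alpha subunit of HIF, fell without drug from 9.26, 9.25 and 8.98 in scramble to 8.24, 8.40 and 8.19 with si-hnRNPK, a difference of -0.89 ± 0.13 (adjusted p = 3.24e-06). Its other 2 probes gave -0.85 and -0.92. PKM, the pyruvate kinase of the last step of glycolysis, fell by 0.53, with other probes at -0.64 and -0.57, and PGK1, the first enzyme of the pathway to yield ATP, fell by 0.22 with a second probe at -0.44. In lower glycolysis 4 of 9 genes fell and none rose, beside 16.2% of all genes called lower and 17% higher. Those that fell were ALDOC, PGK1, ENO2 and PKM. All of the other 5 except PGAM1, at 0.18, had negative differences between -0.14 and -0.19 that did not pass. P4HA1, which rose on its brightest probe, gave 0.16 with the mean of its probes and did not pass (adjusted p = 0.134). Calls lost with 1 array left out were those of PGK1 and VEGFA (5 of the 6 arrays each; VEGFA at -0.43, all but scramble 2, and PGK1 all but si-hnRNPK 1), EGLN1 (scramble 2 or 3, si-hnRNPK 1 or 2), P4HA1 (scramble 1 or 3, si-hnRNPK 2 or 3), HK2 (scramble 1 or 2, si-hnRNPK 1), PFKM (scramble 3, si-hnRNPK 3), ENO2 (scramble 1, si-hnRNPK 3) and PKM (si-hnRNPK 1), with adjusted p up to 0.24.

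The si-hnRNPK differences were then set side by side in both drug states. Of the 18 members called in each state, 13 were called in both (72.2% of each list), and all 13 went the same way. SLC2A3, HK2, PFKFB3, EGLN1, ADM, ANKRD37 and P4HA1 were higher, and HK1, PFKFB4, TIGAR, ALDOC, ENO2 and BNIP3L were lower. The second HK2 probe was negative in both states (-0.08 and -0.10), and those of PFKFB3 and BNIP3L gave 0.11 and -0.06 with DOX. EGLN1 was lost in both states with 1 array left out, and without drug under cyclic loess (limma, adjusted p = 0.0728). P4HA1 did not pass without drug on the mean of its probes. The sign was the same in 30 of 35 members, and the differences correlated at r = 0.897 across the 35 members, which share arrays and normalization within each state. Over all 12483 genes, 3058 were called in both states with the same direction, 61.7% of the calls with DOX and 73.6% of those without it. The sign was the same in 75% of all genes and r was 0.84, so the recurrence was common to all genes tested and is not read as one of the members. The interaction of the si-hnRNPK label with DOX was called for 0 members by limma (3.17% of all genes, 2.05% higher and 1.12% lower), with 6 members at an unadjusted p under 0.05. The largest was HIF1A, at 0.60 (adjusted p = 0.062). Its other 2 probes gave interactions of 0.94 and 1.02, which did pass in a fit of all probes (adjusted p = 0.00088 and 0.0026), so the call for HIF1A rests on the choice of probe. P4HA1 and LDHB followed at 0.51 and 0.50 (adjusted p = 0.087 and 0.0997).

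**Figure D4:**
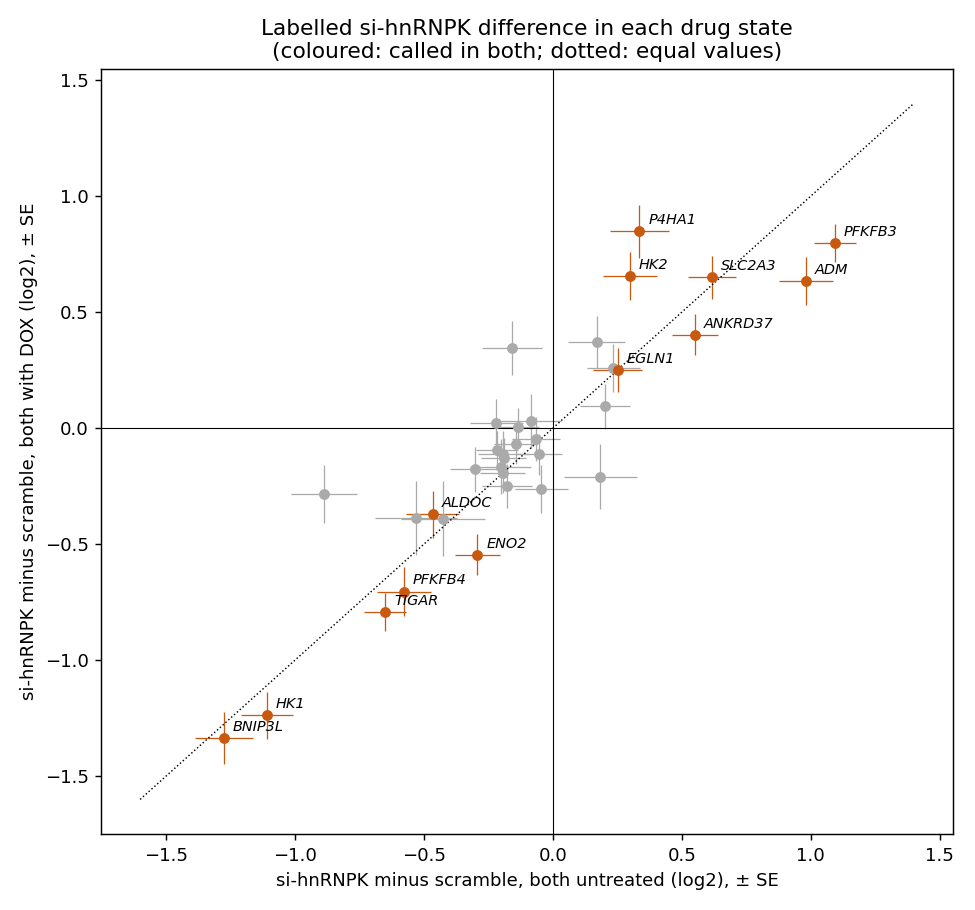
Log2 difference of the arrays labelled si-hnRNPK from scramble, without drug (x axis) and with DOX (y axis), for the 35 members tested; bars are standard errors and coloured points were called in both states. The 13 coloured members lie in the lower left and upper right quadrants, and HIF1A lies lower without drug (-0.89) than with it (-0.28).

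Within the arrays labelled si-PSTAR, DOX changed 12 of 35 members, 6 higher and 6 lower, against 17.9% of all genes (10.2% higher, 7.69% lower). ADM rose from 9.73, 9.93 and 9.75 to 10.48, 10.46 and 10.56, 1.62-fold (0.69 ± 0.10, adjusted p = 5.02e-05). HIF1A rose by 0.53 (adjusted p = 0.00492), with its other probes at 0.19 and 0.13. The genes of glucose uptake and phosphorylation fell in 3 of 4 cases: SLC2A3 by 0.56 (adjusted p = 0.000164), SLC2A1 by 0.44 and HK2 by 0.35, with the second HK2 probe at 0.12. EGLN1 fell by 0.42, ANKRD37 by 0.39 and PFKP by 0.35, while KDM3A, LDHB, NDRG1 and TIGAR rose by 0.36, 0.37, 0.31 and 0.25. The untreated KDM3A mean was 5.66, below the dim limit of 5.72, so its rise is not a measured size. None of the 9 lower glycolysis genes passed the test. The calls of HK2 (without untreated replicate 2 or DOX replicate 1), PFKP (untreated 3, DOX 3), TIGAR (untreated 1 or 2, DOX 2 or 3), LDHB (untreated 1 or 3, DOX 2 or 3) and NDRG1 (all but untreated 3) were lost with those arrays left out, with adjusted p up to 0.152. On the untreated side, replicate 1 stood apart for VEGFA, at 7.75 beside 8.86 and 8.51, and for PKM, at 12.56 beside 11.59 and 11.51.

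The remaining comparisons cross the clusters of arrays. DOX against none in scramble called 22 of 35 members, 15 higher and 7 lower, against 65.2% of all genes (50.3% higher, 14.9% lower). In the arrays labelled si-hnRNPK it called 21 (16 higher, 5 lower) against 58.8% (45.5% higher, 13.2% lower), and untreated si-PSTAR against untreated scramble called 24 (15 higher, 9 lower) against 66.2% (43.6% higher, 22.6% lower). The median of all genes moved by 0.24, 0.21 and 0.17 in these comparisons, and cyclic loess scaling brought it to 0.05, 0.05 and 0.00, with 7 higher and 9 lower, 9 higher and 10 lower, and 11 higher and 12 lower members. Of all calls, 77.2%, 77.5% and 65.9% were higher on the deposited scale and 51.1%, 49.8% and 45.5% after loess. The interaction of the si-PSTAR label with DOX, which involves both clusters, was called for 21 members, 6 higher and 15 lower, against 52.9% of all genes (14.1% higher, 38.8% lower). After loess it was called for 6 higher and 4 lower members, and the share of higher calls over all genes went from 26.6% to 56.5%. Directions of small differences in these comparisons therefore depend on the scaling.

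Large differences across the clusters were found in few members. LDHB read 13.08, 13.01 and 13.03 on untreated scramble arrays and 10.40, 10.41 and 10.61 with DOX, 5.92-fold lower (-2.57 ± 0.12, adjusted p = 4.3e-16). P4HA1 read 9.21, 9.28 and 9.10 and then 6.50, 6.29 and 6.64, 6.62-fold lower (-2.73, adjusted p = 7.77e-17). KDM3A was at 7.54, 7.66 and 7.60 and then at 5.93, 5.61 and 5.69, close to the dim limit, and HIF1A fell by 1.56. The same 4 genes also fell from untreated scramble to untreated si-PSTAR arrays, where neither side had the drug. The differences were -2.44 for LDHB, -2.47 for P4HA1 and -1.90 for HIF1A; that of KDM3A, at -1.94, is against a level of 5.66, below the dim limit, and is not a measured size. Drug, siRNA label and cluster cannot be told apart for them. EGLN3, the HIF-induced hydroxylase, was tested nowhere and read 6.43, 6.36 and 6.18 on untreated scramble, 5.96, 6.06 and 5.82 on untreated si-hnRNPK and between 5.32 and 5.64 on the other 12 arrays. Among members that rose with DOX in scramble, ADM was 0.98 higher (adjusted p = 1.31e-08), ENO2 0.91, NDRG1 0.73 and TIGAR 0.66 (adjusted p = 1.45e-07); TIGAR was 0.52 higher in the arrays labelled si-hnRNPK. After loess scaling these rises in scramble were 0.71, 0.60, 0.46 and 0.36, each still called.

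Second probes did not always follow the brightest ones, within clusters or across them. Of the 36 members, 16 had a second probe at or above the median of all probes. Both probes had the same sign in 16 of 16 between the labels under DOX, in 12 for si-PSTAR under DOX, in 11 and 13 for si-hnRNPK with and without it, and in 12 for DOX in si-PSTAR. Both were called in only 2, 3, 1, 4 and 0 members of these comparisons, in that order. The largest gap between probes was 1.68 between the labels under DOX. Across the clusters it was the same in 14 for DOX in scramble, 12 for DOX in si-hnRNPK and 12 for si-PSTAR without drug. Both probes were called there in 8, 6 and 7 members. BNIP3L was called in opposite directions in each of them, and HK2 for si-PSTAR without drug. BNIP3L rose by 0.63 with DOX in scramble on its brightest probe and fell by 1.55 on its second, and both were called. The second HIF1A probe fell by 3.95 where the brightest fell by 1.56, and the second PGK1 probe fell by 0.94 where the brightest was at -0.01.

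**Figure D5:**
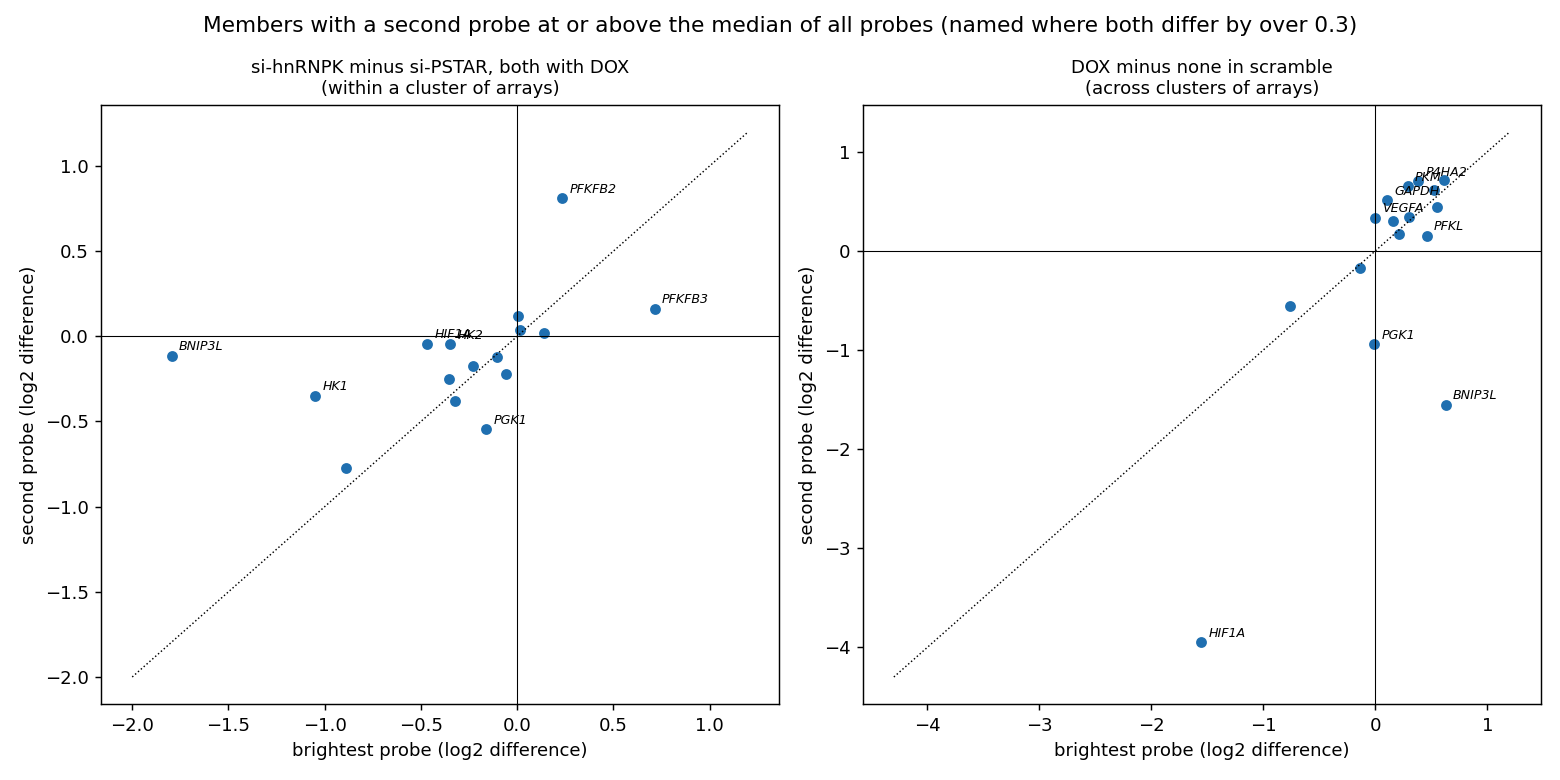
Log2 difference on the brightest probe (x axis) and on the second probe (y axis) of the members with both at or above the median of all probes; left, si-hnRNPK minus si-PSTAR with DOX, within the larger cluster of arrays; right, DOX minus none in scramble, across clusters. The dotted line marks equal values; BNIP3L lies at 0.63 and -1.55 on the right, and HIF1A at -1.56 and -3.95.

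Genes of the surrounding pathways were counted in the same fit. With si-PSTAR under DOX, 7 of 16 tested genes for HIF subunits and oxygen sensing rose and 1 fell; EPAS1, the HIF-2 alpha subunit, rose by 0.81, EGLN2 by 0.72, SIAH2 by 0.61 and ARNT, the HIF beta subunit, by 0.51. Of 34 further hypoxia-inducible genes, 15 rose and 5 fell, with STC2 at 1.73, ERO1A at 1.22, AK4 at 1.09 and HMOX1 at -0.80. Of 9 genes of gluconeogenesis and glycogen metabolism 1 rose and 6 fell, and of 7 of the pentose phosphate pathway 2 rose and 2 fell, PGLS, its lactonase, by 1.45. Of 13 genes of pyruvate fate and lactate export 1 rose and 3 fell; PDK4, a kinase of pyruvate dehydrogenase, was at 0.82. Of 10 other glycolytic isozymes 2 rose and 2 fell, ENO3 by 0.72. Of all genes tested in this comparison, 22.4% were called higher and 22.6% lower. Whether these lists differ from all genes was not tested. The median of the HIF subunit list was 0.21 and that of the further hypoxia-inducible list 0.15, beside 0.01 for all genes.

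With si-hnRNPK, 7 of the 16 HIF subunit and oxygen sensing genes rose and 1 fell under DOX, and 6 rose and 1 fell without drug. CITED2, an inhibitor of HIF coactivation, rose by 1.195 and 1.37, EPAS1 by 0.99 and 1.17, and ARNT2 by 0.72 and 1.21. Of the 34 further hypoxia-inducible genes 9 rose and 5 fell under DOX, and 6 rose and 8 fell without it. Of all genes, 19.8% were called higher and 19.9% lower under DOX, and 17% and 16.2% without drug. The medians of the HIF subunit list were 0.21 and 0.09 and those of the further list 0.02 and 0.00, beside -0.01 and 0.00 for all genes. BHLHE40, a hypoxia-induced transcriptional repressor, fell by 1.86 and 1.41, and STC2 rose by 0.91 and 1.17. Between the labels under DOX, 5 of these 34 were higher with si-hnRNPK and 12 lower, beside 22.3% and 20.9% of all genes. HMOX1, haem oxygenase 1, was 1.47 higher and AK4 1.51 lower.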

How the data were processed

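Total RNA was amplified with an Illumina TotalPrep kit and hybridised, per the labels' protocols, which name 8 or 16 hours of drug; the sample labels give 16 hours. The authors deposited log2 intensities of 43961 probes. From the values, they had been quantile normalized before deposit: 99.9955% of ranks agreed within 0.01 between the 18 arrays. No source used here gives the software, the background correction or scan batches. The values were used as deposited.

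Probes were named from the platform annotation (29511 with 1 gene symbol, 0 with several, 14450 with none here); 29474 matched RefSeq (GRCh38.p14) by gene identifier and 0 symbols changed. A gene took its brightest probe, and 7299 genes below the median of all probes were not tested. Probe levels are not compared between genes. A model of 6 group means was fitted to 12483 genes with limma 3.58.1 (R 4.3.3), with 12 residual and 13.5 prior degrees of freedom; two-sided p-values were adjusted by Benjamini-Hochberg over all tested genes of a comparison, at 0.05. Intervals are 95%. Exact permutation of 3 arrays against 3 cannot go below p = 0.1. The number of arrays limits the precision. Second-probe tests were adjusted over all probes. The fit was also run on simulated arrays with few changed genes and no clusters, a setting unlike these data. That run checks the code only.

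The members, pathway lists and tests were chosen with earlier results of these data known. Named genes were every member, HNRNPK, and up to 4 called genes of each pathway list with the smallest p. Same-numbered arrays did not deviate together (median r 0.01, 6 of 45 pairs over 0.1), so numbers were not used as pairs. Alternatives were cyclic loess, other probes, other filters, fewer arrays and the replicate number as a block; a fit of the 12 arrays of the larger cluster was added after seeing the data.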

Additional observations from a re-analysis of the deposited data

Results flagged for a closer look

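The response to DOX differed between the arrays labelled si-PSTAR and scramble for 21 of 35 members, by the interaction term of the limma fit (52.9% of all genes were called, 14.1% higher and 38.8% lower). Untreated scramble and untreated si-PSTAR arrays lie in different clusters, so cluster and label cannot be told apart in these values. The interaction, as the log2 response with si-PSTAR minus that in scramble, was positive for HK2 (0.41), LDHB (2.93), HIF1A (2.08), BNIP3 (0.46), KDM3A (2.21) and P4HA1 (2.94). It was negative for SLC2A3 (-0.45), GPI (-0.46), PFKL (-0.6), PFKP (-0.52), PFKFB2 (-0.55), PFKFB3 (-0.71), PFKFB4 (-0.47), TIGAR (-0.41), ALDOA (-0.75), ENO2 (-0.98), PKM (-0.61), EGLN1 (-0.58), ANKRD37 (-0.7), BNIP3L (-0.42) and NDRG1 (-0.43). The median interaction was -0.24 over all genes tested and -0.28 over the members. The KDM3A value rests on a mean level below the dim limit on the untreated si-PSTAR arrays (5.66) and is not a measured size. After cyclic loess scaling 6 members were higher and 4 lower, with 2305 higher and 1773 lower among all genes, so the share of higher calls went from 26.6% to 56.5%. The negative calls of SLC2A3, GPI, PFKL, PFKP, PFKFB2, PFKFB4, TIGAR, PKM, EGLN1, BNIP3L and NDRG1 were lost with that scaling. TIGAR, for example, was then at -0.12 (limma, adjusted p = 0.458). The negative calls that stayed were those of PFKFB3, ALDOA, ENO2 and ANKRD37. Of the 21 calls, 6 were lost with 1 array left out: HK2 (untreated scramble 3, scramble DOX 3, untreated si-PSTAR 1 or si-PSTAR DOX 3), GPI (untreated scramble 2, scramble DOX 1 or si-PSTAR DOX 2), PKM (untreated scramble 1, scramble DOX 1, untreated si-PSTAR 1, si-PSTAR DOX 2 or 3), BNIP3 (untreated scramble 1), BNIP3L (untreated scramble 2, scramble DOX 2 or si-PSTAR DOX 1) and NDRG1 (untreated scramble 2 or scramble DOX 3), with adjusted p up to 0.103. PKM was at -0.27 without untreated si-PSTAR replicate 1. The second probes of HK2, BNIP3L and PGK1 gave 0.68, 1.56 and 1.16.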

How the results depend on the processing

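Member counts stayed within 1.5 times the reported count under cyclic loess, another filter, the mean of a gene's probes, the second probe, the compared arrays alone, the replicate block and, where run, the 12 arrays of the larger cluster, with these exceptions. With only the arrays compared, DOX in the arrays labelled si-PSTAR called 7 members and 884 genes in place of 12 and 2233, and the si-hnRNPK interaction called 2 members and 661 genes in place of 0 and 396; the fit then rests on fewer samples. That interaction called 1 member under loess, 2 with the mean of probes and 2 with the second probe. Loess gave 10 members and 4078 genes for the si-PSTAR interaction (21 and 6600 as reported) and 4594 genes for DOX in si-hnRNPK (7335); the cause was not tested. Testing without the filter, or with fewer arrays, ended calls with adjusted p between 0.0503 and 0.137 for ALDOA with si-PSTAR under DOX, for PFKL, PFKP, ALDOA and EGLN1 with si-hnRNPK under DOX, for PGK1, EGLN1 and VEGFA without drug, for HK2, PFKP, TIGAR, LDHB and NDRG1 with DOX in si-PSTAR for GPI and PGAM1 between the labels, for PFKFB4, PGK1, PKM, VEGFA and ADM with si-PSTAR without drug, for TPI1 with DOX in si-hnRNPK and for PKM in the si-PSTAR interaction. Directions turned mainly with the second probe. HK2 gave -0.033, -0.078 and -0.10 in the si-PSTAR comparison with DOX and the si-hnRNPK comparisons with and without it, 0.12 for DOX in si-PSTAR, and -0.71 (mean of probes -0.059) for si-PSTAR without drug; PFKL gave -0.0052 with si-hnRNPK under DOX. For BNIP3L the mean and the second probe gave -0.31 and -1.50 for si-PSTAR without drug, -0.46 and -1.55 with DOX in scramble, -0.067 and -0.70 with DOX in si-hnRNPK, and 0.39 and 0.85 and then 0.57 and 1.56 for the si-hnRNPK and si-PSTAR interactions. PGK1 gave -0.27 and -0.72 for si-PSTAR without drug, -0.25 and -0.62 for DOX in si-hnRNPK, and 0.52 and 1.16 for the si-PSTAR interaction. The second probe gave 0.33 for VEGFA with DOX in scramble and 0.27 for PGAM1 with DOX in si-hnRNPK, where loess turned PFKFB3 to -0.025.

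With each array left out in turn, member counts ranged from 16 to 20 and gene counts from 5020 to 5173 for si-PSTAR under DOX, from 14 to 17 and 4359 to 4658 for si-hnRNPK under DOX, from 13 to 15 and 3413 to 3553 for si-hnRNPK without drug, from 8 to 11 and 1378 to 2289 for DOX in si-PSTAR, from 15 to 17 and 4866 to 5027 between the labels, from 0 to 1 and 205 to 441 for the si-hnRNPK interaction, from 21 to 23 and 7717 to 8141 for si-PSTAR without drug, from 21 to 24 and 7444 to 7809 for DOX in scramble, from 19 to 23 and 6520 to 6922 for DOX in si-hnRNPK, and from 18 to 22 and 6015 to 6726 for the si-PSTAR interaction. The lowest gene counts for DOX in si-PSTAR and for the si-hnRNPK interaction came without si-PSTAR DOX replicate 2 and without untreated si-hnRNPK replicate 1. The replicate number as a block called 20 members for si-PSTAR and 19 for si-hnRNPK under DOX, 16 for si-hnRNPK without drug, 12 for DOX in si-PSTAR, 18 between the labels, 0 for the si-hnRNPK interaction, 23 for si-PSTAR without drug, 22 for the drug in scramble, 21 for the drug in si-hnRNPK and 21 for the si-PSTAR interaction. The block ended the calls of PGK1 and of EGLN1, which is among the 13 called in both states, with si-hnRNPK without drug (adjusted p = 0.0506 and 0.0526), of PGAM1 between the labels (0.0523) and of PGK1 with si-PSTAR without drug (0.0531). The numbers did not pair the arrays: r between same-numbered deviations ran from -0.19 to 0.19, and 5 of 18 arrays were closest to their own number. Values near the dim limit carry little signal over background, as for PDK1 and the second HK1 probe. EGLN3 and KDM3A were near it on the 12 arrays of the larger cluster. KDM3A read 7.60 and 7.53 as means on untreated scramble and untreated si-hnRNPK arrays. The second BNIP3L probe, near the limit as a mean over 18 arrays, still fell by 1.55 with DOX in scramble.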

Other observations

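Genes of gluconeogenesis and of the pentose phosphate pathway were compared between si-hnRNPK and scramble in the same fit. PCK2, the mitochondrial phosphoenolpyruvate carboxykinase, rose by 0.78 under DOX and by 1.03 without drug (limma, adjusted p = 2.97e-08 and 2.17e-10). RPIA, which isomerises ribose 5-phosphate, rose by 0.86 and 0.71 (adjusted p = 3e-07 and 7.76e-06). Of the 9 gluconeogenesis and glycogen genes tested, 2 rose and 2 fell under DOX, and 1 rose and 2 fell without it. Of the 7 pentose phosphate genes, 2 rose and 1 fell, and 3 rose and 0 fell. Of all genes, 19.8% were called higher and 19.9% lower under DOX, and 17% and 16.2% without drug. These counts are not read as a result about the lists. Between the labels under DOX, 5 of the 9 gluconeogenesis and glycogen genes were higher with si-hnRNPK and 1 was lower, beside 22.3% and 20.9% of all genes. PYGL, the liver glycogen phosphorylase, was 0.72 higher, and PGLS was 1.13 higher.

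As means over 18 arrays, SLC2A2, the liver glucose transporter, read 5.31, PFKFB1 5.44 and HKDC1 5.59, below the median of all probes of 5.72, and PKLR, the liver and red cell pyruvate kinase, read 5.75, just above it.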
